A study of Saccharomyces cerevisiae with 24 samples.

Results

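The comparison was between the diploid budding yeast strain N2/Ca and the diploid wild type Sc/Sc, in which the submitters looked at how gene expression responds when the actin sequence of the cell is changed. The members were all 3 libraries of N2/Ca and all 3 libraries of Sc/Sc, 6 of the 24 RNA-seq libraries of the study, and all 5727 yeast genes listed for them. The other 18 libraries came from 6 haploid strains, of which N2, Ca and the haploid wild type ScNI are set beside the diploids below. Every strain was grown to log phase in YPD, a rich glucose medium, at 25 °C, and poly(A) RNA was sequenced from 500 ng of total RNA. The labels give the strain name and the ploidy of each library. They say neither what the names N2 and Ca stand for nor which promoter drives the introduced actin genes. They also do not say how the diploids were made, which auxotrophic markers they carry, or whether replicates were separate cultures or clones. The p values therefore measure the spread between these 6 libraries, which may be technical.

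Actin is the protein of the filaments that carry secretion to the growing bud, pull endocytic patches inward and close the contractile ring, and ACT1 is the single conventional actin gene of budding yeast. Yeast cells watch the integrity of their wall through membrane sensors of the Wsc and Mid2 families, which act through protein kinase C and the MAP kinase Slt2 on the transcription factor Rlm1. The heat shock factor Hsf1 sets the level of cytosolic chaperones according to how much unfolded protein occupies them. Leu3 is a zinc cluster factor that reads the leucine pathway intermediate isopropylmalate, and Ppr1 is the corresponding factor for pyrimidine synthesis.

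Library depth lay between 12128284 and 15134814 reads. Values are DESeq2-normalised counts, and a gene is said to rise or fall in N2/Ca only where limma on log2(value + 1) gave an adjusted p below 0.05. Folds are N2/Ca minus Sc/Sc on that log2 scale, and ± gives a standard deviation over 3 libraries. Of 5727 genes, 822 passed, or 14.4%: 492 rose (8.59%) and 330 fell (5.76%). Changes larger than 2-fold were seen for 150 risen and 61 fallen genes, and the median fold of all genes was 0.01. In bulk RNA, fewer cells with a transcript and less of it in each cell cannot be told apart. The count depended on the libraries. It was 369 without N2/Ca replicate 1, 312 without N2/Ca replicate 2, 266 without N2/Ca replicate 3, 489 without Sc/Sc replicate 2 and 1363 without Sc/Sc replicate 3.

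Of the 3 N2/Ca libraries, replicate 1 stood apart. Over all genes its deviations correlated at 0.52 and 0.53 with those of N2/Ca replicates 2 and 3, which correlated at 0.79 with each other. Replicate 1 also stood apart by chromosome, as the plot of chromosome medians shows. Its median gene on chromosome VI lay at log2 0.41 relative to the Sc/Sc mean, against 0.00 and 0.01 in N2/Ca replicates 2 and 3. On chromosome XIII the median was 0.46 in N2/Ca replicate 1 and 0.04 in both other N2/Ca libraries. ACT1 lies on chromosome VI. Of the 579 genes tested on chromosomes VI and XIII, 59 rose and 14 fell, beside 8.59% risen and 5.76% fallen over all genes. Among the Sc/Sc libraries, replicate 3 stood apart: its deviations correlated at 0.17 and 0.10 with those of Sc/Sc replicates 1 and 2, which correlated at 0.44 with each other. Its cytosolic ribosomal protein genes summed to 3865817 normalised counts, against 2752405 and 2905515 in Sc/Sc replicates 1 and 2. Without N2/Ca replicate 1 and Sc/Sc replicate 3 together, 902 genes rose and 875 fell.

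**Figure D1:**
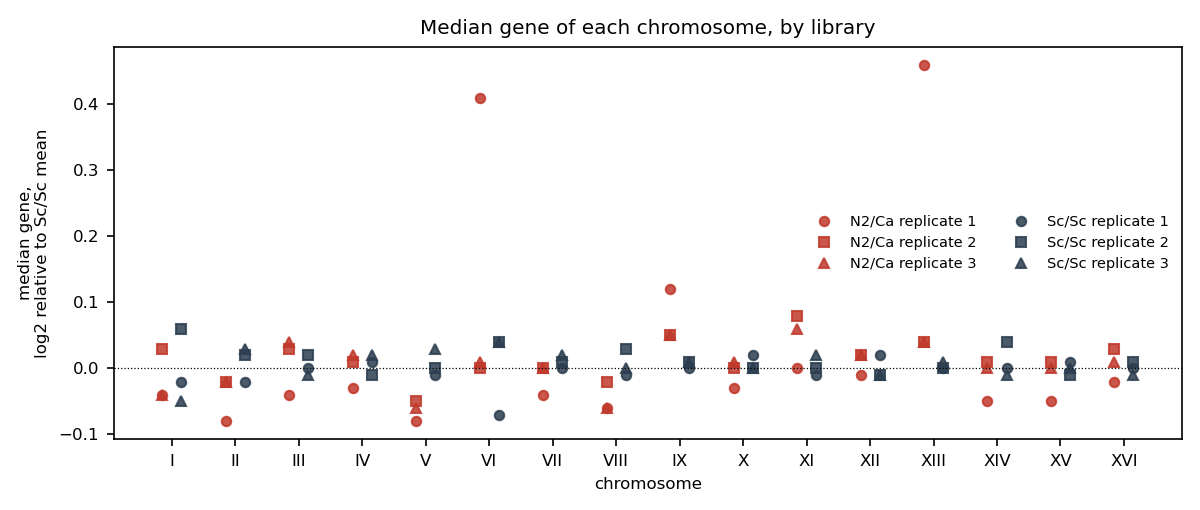
The median over the genes of each chromosome, as log2 relative to the mean of the Sc/Sc libraries, is plotted for each library (N2/Ca red, Sc/Sc dark). N2/Ca replicate 1 lies at 0.41 on chromosome VI and 0.46 on chromosome XIII, and all other points on these chromosomes lie between −0.07 and 0.04.

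ACT1 fell in N2/Ca, and transcripts assigned to the 2 introduced actin rows named N2 and Ca stood beside it. ACT1 was at 15859, 13685 and 13048 normalised counts in N2/Ca and 21885, 23793 and 26900 in Sc/Sc, a change of log2 −0.77 (SE 0.13, limma adjusted p = 0.0085). The Ca row held 10461, 12067 and 10975 normalised counts in N2/Ca and 23.1, 19.7 and 27.4 in Sc/Sc. The groups did not overlap in either row, and the Ca row was even over the 3 N2/Ca libraries. The N2 row held 10188, 5722 and 5303 in N2/Ca and 280, 256 and 371 in Sc/Sc, so that N2/Ca replicate 1 was the high library. The ratio of the N2 to the Ca row was 0.974 in N2/Ca replicate 1 and 0.474 and 0.483 in N2/Ca replicates 2 and 3. Summed over ACT1, N2 and Ca, actin reached 36508, 31475 and 29326 in N2/Ca and 22188, 24068 and 27299 in Sc/Sc. The groups did not overlap in this sum either. How reads were divided between ACT1 and the introduced genes is not stated, and the sizes of the 3 rows are uncertain to that extent. The fall of ACT1 missed the threshold without N2/Ca replicate 2 (−0.75, adjusted p = 0.052) and without N2/Ca replicate 3 (−0.71, adjusted p = 0.05).

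The 5 MATa-specific genes tested summed to 1010, 660 and 719 normalised counts in N2/Ca and 504, 535 and 459 in Sc/Sc. The receptor gene STE2 of MATa cells held 315, 139 and 138 normalised counts in N2/Ca and 95.5, 84.4 and 85.1 in Sc/Sc. It lies on chromosome VI, was highest in N2/Ca replicate 1 and did not pass (log2 1.04, adjusted p = 0.059). The 4 MATalpha-specific genes tested summed to 810, 807 and 815 in N2/Ca and 760, 811 and 446 in Sc/Sc. Of 5 MATa-specific genes tested only BAR1, the pheromone protease, rose, and 0 of the 4 MATalpha-specific genes passed, nor did any reach an unadjusted p below 0.05. At that unadjusted limma p, 3 of the 5 MATa-specific genes lay above Sc/Sc and 0 below. Of 13 haploid-specific genes 1 rose and 0 fell, and 6 lay above and 0 below at the unadjusted p. Over all genes, 17.9% lay above and 15.7% below in that way. BAR1 lost its call when any of the N2/Ca libraries or Sc/Sc replicates 1 or 2 was left out, with an adjusted p of up to 0.1.

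In the lists of the actin cytoskeleton the counts that passed were small and lay near or below the shares over all genes, 8.59% risen and 5.76% fallen. Of 15 Arp2/3 complex and activator genes, 1 rose and 0 fell, and of 14 genes for filament turnover and bundling 0 passed in limma, with 0 above and 2 below Sc/Sc at an unadjusted p below 0.05. Among 17 formin, tropomyosin and cable genes 2 rose, and among 31 endocytic coat genes 3 rose. At an unadjusted p below 0.05, 8 endocytic genes lay above and 3 below Sc/Sc, 5 and 3 formin and cable genes, and 3 and 2 Arp2/3 list genes, beside 17.9% above and 15.7% below over all genes. With libraries left out these counts moved: 0 endocytic genes rose without any single N2/Ca library, 1 without Sc/Sc replicate 2 and 7 without Sc/Sc replicate 3. Formin and cable genes that rose numbered 1 without any single N2/Ca library or Sc/Sc replicate 1 and 4 without Sc/Sc replicate 3, and the risen Arp2/3 list gene passed in no fit that left out a library other than Sc/Sc replicate 3, where 2 genes of that list rose. The median fold of these 4 lists lay between −0.15 and 0.21. In the CCT chaperonin and prefoldin list, which fold actin and tubulin, 1 of 16 genes fell: PAC10, a prefoldin subunit, at −0.59 (SE 0.12, adjusted p = 0.017). PAC10 lost its call without any of the N2/Ca libraries or Sc/Sc replicate 2, with an adjusted p of up to 0.074.

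Single genes of these lists lay on both sides of the threshold. Profilin, PFY1, which binds actin monomers, held 3654, 3991 and 3850 normalised counts in N2/Ca and 4285, 4503 and 4808 in Sc/Sc. The groups did not overlap, but the fold of −0.24 did not pass (SE 0.10, adjusted p = 0.13). The myosin V motor MYO2, at −0.32 (adjusted p = 0.051), and the Arp2/3 subunit ARC35, at −0.36 (adjusted p = 0.056), also lay just outside the threshold. SMY1, a kinesin-related partner of Myo2, rose to 1340 ± 70.6 normalised counts in N2/Ca, against 806 ± 63.6 in Sc/Sc (log2 0.74, adjusted p = 0.005), and passed whichever library was left out. MYO5, a type I myosin of endocytic patches that lies on chromosome XIII, rose by log2 0.66 (SE 0.18, adjusted p = 0.042). It passed in 1 of the 6 fits that left out a library, and without N2/Ca replicate 1 its fold was 0.50 (adjusted p = 0.12). In the Cdc42 polarity list 3 of 18 genes rose, beside 8.59% over all genes. The count was 0 without N2/Ca replicate 2, 1 without N2/Ca replicate 1 or 3 or Sc/Sc replicate 1, and 7 without Sc/Sc replicate 3. Among the 3 was GIC1, a Cdc42 effector of bud emergence, at 181, 186 and 151 in N2/Ca and 91.1, 86.7 and 87.2 in Sc/Sc. GIC1 changed by log2 0.95 (SE 0.16, adjusted p = 0.0085), and its adjusted p was 0.059 without N2/Ca replicate 2.

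The largest falls were in BTN2, a gene of the Hsf1 and chaperone list, and in the leucine pathway. In the Hsf1 list 20 of 29 genes fell and 0 rose (0 above Sc/Sc also at an unadjusted p below 0.05), with a median fold of −0.92 beside 0.01 for all genes and a share of fallen genes over all genes of 5.76%. The count stayed between 16 and 23 with any library left out. BTN2, a sorting factor for misfolded proteins, held 1087, 1190 and 944 normalised counts in N2/Ca and 10543, 12223 and 15522 in Sc/Sc, a change of −3.56 (SE 0.16, adjusted p = 1.9e-05). The lowest Sc/Sc library lay far above the highest N2/Ca library. CUR1, its paralogue, fell by 1.54 on the log2 scale, to 599 ± 7.78 in N2/Ca against 1760 ± 243 in Sc/Sc.

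The Hsp70 and Hsp90 systems moved the same way. FES1, the nucleotide exchange factor of cytosolic Hsp70, held 1725, 1792 and 1498 in N2/Ca and 5871, 6366 and 7512 in Sc/Sc (log2 −1.97, SE 0.13, adjusted p = 0.00016). SSA4, an inducible Hsp70, fell by 1.90 on the log2 scale (SE 0.24, adjusted p = 0.0027), and SIS1, an essential J-protein partner of Hsp70, by 1.19 (SE 0.12, adjusted p = 0.0011). HSP82, an Hsp90 gene, was at 11035, 9278 and 8513 in N2/Ca and 24246, 30445 and 28063 in Sc/Sc, a change of −1.52 (SE 0.14, adjusted p = 0.00079). Its cochaperones AHA1, CPR6 and STI1 fell by 1.44, 1.26 and 0.99 on the log2 scale. Chaperones of the mitochondrial matrix were in the same group, with HSP78 at −1.50, HSP60 at −1.08 and HSP10 at −0.92. HSP10 had an adjusted p of 0.05 without N2/Ca replicate 1, while each of the other genes named here passed whichever library was left out. SSA1 and SSA2, or HSP82 and HSC82, are close in sequence, and reads could be divided between such copies. HSF1 itself held 1783, 1648 and 1554 normalised counts in N2/Ca and 1795, 1794 and 1284 in Sc/Sc, groups that overlapped (adjusted p = 0.85).

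The heat shock element is an inverted repeat of GAA blocks. It was searched as GAANNTTCNNGAA, on both strands, in the 500 bases before the annotated start of 5647 genes in R64, and 86 of these windows, or 1.52%, held it. It was present before 12 of the 20 fallen Hsf1 list genes and 0 of the 9 that did not pass. Over all 86 genes that held it, 24 fell, or 27.9%, and 5 rose, or 5.81%, beside 5.76% fallen and 8.59% risen over all genes tested. The windows below show the match in capitals with 24 bases on each side, on the strand of the gene, for genes that fell by more than 2-fold; the matches begin 344, 171, 301 and 242 bases before the start of the gene.
BTN2 (chrVII:772086-772146, plus strand): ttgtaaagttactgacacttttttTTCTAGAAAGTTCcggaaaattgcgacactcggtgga
FES1 (chrII:444828-444888, minus strand): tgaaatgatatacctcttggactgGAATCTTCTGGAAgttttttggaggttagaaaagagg
AHA1 (chrIV:892550-892610, plus strand): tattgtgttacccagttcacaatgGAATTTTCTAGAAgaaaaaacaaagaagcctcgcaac
HSP78 (chrIV:974449-974509, minus strand): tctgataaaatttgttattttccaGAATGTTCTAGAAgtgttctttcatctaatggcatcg
A match is a description of the letters and no measure of binding, and the motif was chosen with the folds known.

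In leucine and branched-chain amino acid synthesis, a list put together after its values were seen, 8 of 13 genes fell and 0 rose (1 above Sc/Sc at an unadjusted p below 0.05, ILV5), with a median fold of −0.93. Over all genes 5.76% fell and 8.59% rose. The count of fallen leucine list genes was 6 to 9 with a library left out. LEU1, isopropylmalate isomerase, held 2006, 1868 and 1667 normalised counts in N2/Ca and 21065, 23704 and 17235 in Sc/Sc, a change of −3.48 (SE 0.14, adjusted p = 1.9e-05). No N2/Ca library came near a Sc/Sc library. OAC1, a mitochondrial carrier of oxaloacetate that also moves isopropylmalate, held 344, 450 and 450 in N2/Ca and 3751, 4027 and 2917 in Sc/Sc (log2 −3.10, SE 0.16, adjusted p = 5.2e-05). BAT1, the mitochondrial branched-chain aminotransferase, held 3789, 3700 and 3178 in N2/Ca and 18052, 20595 and 13886 in Sc/Sc (log2 −2.29). LEU2, isopropylmalate dehydrogenase, held 1529, 1108 and 1051 in N2/Ca and 4988, 5198 and 6377 in Sc/Sc (log2 −2.18). These 4 genes passed whichever library was left out.

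The first committed step and the shared upstream steps fell less. LEU4, the main isopropylmalate synthase, fell by 1.37 on the log2 scale (SE 0.12, adjusted p = 0.00058). Its paralogue LEU9 fell by 0.58 (SE 0.13, adjusted p = 0.025), and passed in 1 of the 6 fits that left out a library. ILV2, acetolactate synthase, on chromosome XIII, held 8870, 6263 and 5545 in N2/Ca and 15220, 17719 and 11856 in Sc/Sc, and fell by 1.12 on the log2 scale (SE 0.21, adjusted p = 0.011). ILV3, dihydroxyacid dehydratase, fell by 0.93, with an adjusted p of up to 0.063 where N2/Ca replicate 2 or 3 was left out. ILV5, the reductoisomerase between them, lay the other way, at 9125, 8444 and 7630 in N2/Ca and 7285, 6622 and 5063 in Sc/Sc, and did not pass (log2 0.42, adjusted p = 0.094). LEU3 itself held 1019, 1072 and 971 in N2/Ca and 1071, 983 and 745 in Sc/Sc, which overlapped (adjusted p = 0.52).

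The Leu3 recognition motif, searched as CCGGNNCCGG on both strands, was rare: 16 of 5647 windows of 500 bases held it, or 0.283%. Of the genes behind those 16 windows, 8 fell and 0 rose in N2/Ca, with a median fold of −0.73. Over all genes tested, 5.76% fell and 8.59% rose. In the leucine list it stood before 4 of the 8 genes that fell and 1 of the 5 that did not pass; it was found before neither OAC1 nor LEU4. The windows of the 4 fallen list genes that hold it are shown so that the letters can be compared; the matches, in capitals, begin 217, 198, 147 and 468 bases before the start of the gene.
LEU1 (chrVII:478836-478893, minus strand): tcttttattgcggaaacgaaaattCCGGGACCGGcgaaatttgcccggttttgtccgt
LEU2 (chrIII:91102-91159, plus strand): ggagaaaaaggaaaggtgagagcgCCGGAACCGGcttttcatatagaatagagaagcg
BAT1 (chrVIII:517361-517418, plus strand): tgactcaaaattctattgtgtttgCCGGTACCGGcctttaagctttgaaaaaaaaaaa
ILV2 (chrXIII:483592-483649, plus strand): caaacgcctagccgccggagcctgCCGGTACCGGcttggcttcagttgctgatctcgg
The 4 other fallen genes with the motif, named after their values were seen, lie outside the list. GDH1, the NADP-dependent glutamate dehydrogenase, held 12374, 8780 and 7081 in N2/Ca and 22258, 29338 and 24770 in Sc/Sc (log2 −1.47, SE 0.21, adjusted p = 0.0043). FSF1, a mitochondrial protein of the sideroflexin family, held 1825, 1935 and 1758 in N2/Ca and 4803, 4989 and 4509 in Sc/Sc (log2 −1.37, SE 0.10, adjusted p = 0.00019). DRE2, of cytosolic iron-sulfur protein assembly, held 1603, 1527 and 1485 in N2/Ca and 3578, 3714 and 4187 in Sc/Sc (log2 −1.31, SE 0.10, adjusted p = 0.0003). GAT1, a nitrogen-regulated activator on chromosome VI, fell by 1.01 on the log2 scale, but passed in 1 of the 6 fits that left out a library. BAP2, a branched-chain amino acid permease with the motif, was at −0.45 and just missed the threshold (adjusted p = 0.051). The motif also stood before ILV5, which lay above Sc/Sc.

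Amino acid synthesis as a whole leaned the same way. Of 51 genes of amino acid synthesis and GCN4, 26 fell and 0 rose (3 above Sc/Sc at an unadjusted p below 0.05), with a median fold of −0.45, and the count was 10 to 31 with a library left out (10 without N2/Ca replicate 2, 10 without N2/Ca replicate 3 and 15 without Sc/Sc replicate 2). The shares over all genes were 5.76% fallen and 8.59% risen, and 17.9% lay above Sc/Sc at the unadjusted limma p. OAC1 is not part of this list, but LEU1, BAT1, LEU2 and LEU4 are. Outside them, HOM2, of threonine and methionine synthesis, fell to 5696 ± 894 normalised counts in N2/Ca, against 11145 ± 1729 in Sc/Sc (log2 −0.97, adjusted p = 0.0071). HIS5, of histidine synthesis, fell by 0.76 on the log2 scale (adjusted p = 0.003), and GCV2, a glycine decarboxylase subunit on chromosome XIII, by 1.05 (adjusted p = 0.0028). The 4 members of the list with the lowest folds were LEU1, BAT1, LEU2 and LEU4.

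Pyrimidine synthesis followed in 2 genes with very even libraries. URA1, dihydroorotate dehydrogenase, held 3112, 3102 and 3327 in N2/Ca and 15710, 16093 and 18290 in Sc/Sc, a change of −2.39 (SE 0.11, adjusted p = 1.9e-05). URA4, dihydroorotase, held 1553, 1628 and 1609 in N2/Ca and 5074, 5477 and 6448 in Sc/Sc (log2 −1.82, SE 0.11, adjusted p = 0.00016). Of 13 genes of pyrimidine synthesis and uptake, a list also formed after its values were seen, 4 fell and 0 rose. The uridine permease gene FUI1 fell by 0.80 on the log2 scale and the CTP synthase gene URA8 by 0.46, each passing in 2 of the 6 fits that left out a library, and the list's count was 2 without any single N2/Ca library. The Ppr1 motif CGGNNNNNNCCG, searched in the same way, was present in 159 windows, or 2.82%, and before URA1, URA4 and FUI1. Over all 159 genes, 23 fell, or 14.5%, and 7 rose, or 4.40%, beside 5.76% fallen and 8.59% risen over all genes tested. Matches begin 212 and 130 bases before the start for the first match before URA1 and for URA4, and are in capitals.
URA1 (chrXI:24979-25038, plus strand): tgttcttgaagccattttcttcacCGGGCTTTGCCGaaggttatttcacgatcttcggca
URA4 (chrXII:963631-963690, plus strand): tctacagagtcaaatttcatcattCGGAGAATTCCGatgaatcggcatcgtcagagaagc
The motif also stands before URA3, orotidine phosphate decarboxylase, which held 1967, 1468 and 1419 in N2/Ca and 2345, 1913 and 2588 in Sc/Sc. The groups of URA3 overlapped, and it did not pass (log2 −0.50, adjusted p = 0.074). None of the 4 motifs searched contains another.

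**Figure D2:**
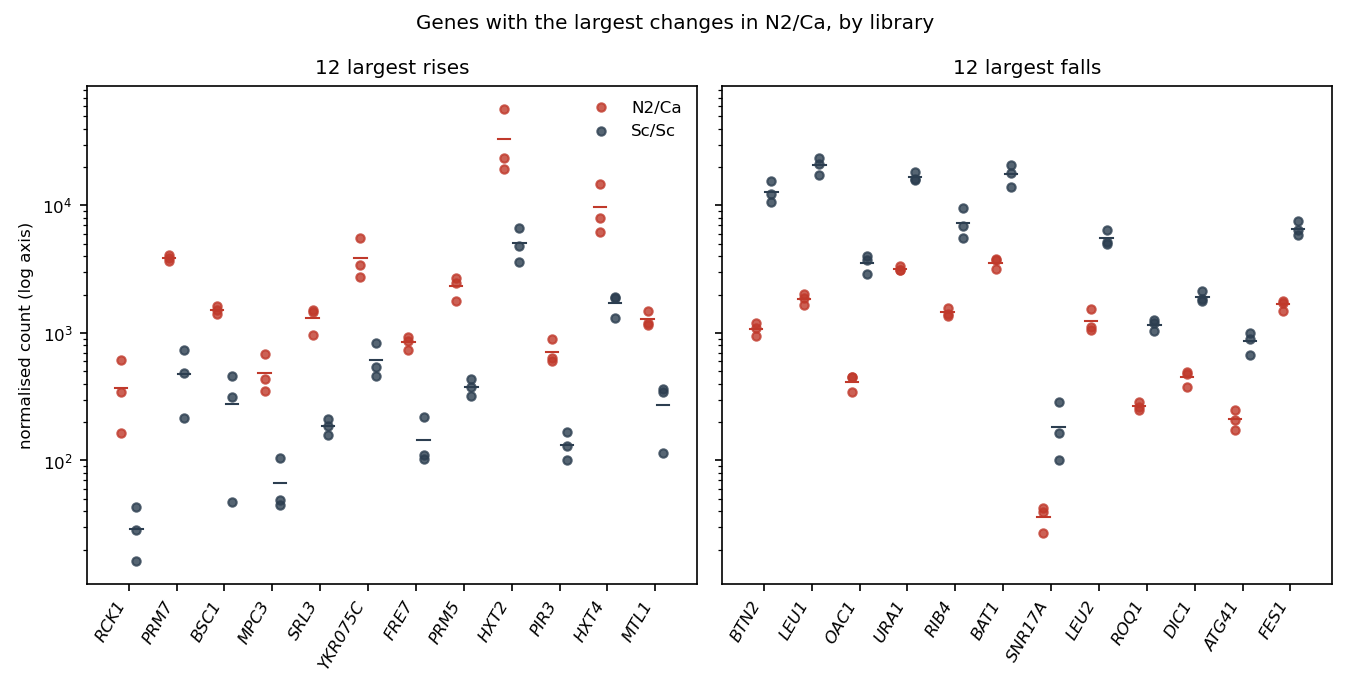
DESeq2-normalised counts on a log axis are plotted for the 12 genes with the largest rise and the 12 with the largest fall, chosen among genes that passed and whose groups did not overlap. Points are libraries (N2/Ca red, left; Sc/Sc dark, right) and bars are means of 3; BTN2 is at 944 to 1190 in N2/Ca and 10543 to 15522 in Sc/Sc.

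The genes that rose most were led by RCK1, PRM7 and BSC1. RCK1, a stress-linked protein kinase gene, held 609, 164 and 346 in N2/Ca and 28.5, 42.8 and 16.2 in Sc/Sc (log2 3.54, SE 0.49, adjusted p = 0.0043), with a wide spread in both groups. PRM7, a pheromone-regulated membrane protein gene, held 4097, 3841 and 3651 in N2/Ca and 740, 487 and 215 in Sc/Sc (log2 3.17, SE 0.38, adjusted p = 0.002). Its neighbour BSC1 held 1632, 1409 and 1501 in N2/Ca and 462, 315 and 47.6 in Sc/Sc (log2 2.98, SE 0.71, adjusted p = 0.028). Both neighbours were lowest in Sc/Sc replicate 3, and BSC1 lost its call without Sc/Sc replicate 2 or any of the N2/Ca libraries, with an adjusted p of up to 0.096. MPC3, a mitochondrial pyruvate carrier subunit gene, rose by log2 2.92, YKR075C, of unknown function, by 2.65, and FRE7, a metalloreductase gene, by 2.62. SRL3, a relative of the Start repressor Whi5, held 965, 1467 and 1516 in N2/Ca and 212, 157 and 187 in Sc/Sc (log2 2.80, SE 0.20, adjusted p = 0.00019).

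Cell wall integrity genes rose at both ends of the pathway. Of 20 signalling genes 9 rose and 0 fell (11 and 0 at an unadjusted p below 0.05), with a median fold of 0.49, and of 24 target genes 15 rose and 1 fell, with a median of 0.70; the share of risen genes over all genes was 8.59%. With a library left out the counts of risen genes were 7 to 11 and 8 to 16, with 8 targets in the fits without N2/Ca replicate 1, 2 or 3. Among the sensors, WSC3 held 702, 734 and 674 in N2/Ca and 217, 237 and 165 in Sc/Sc (log2 1.78, SE 0.16, adjusted p = 0.00058). MTL1 held 1489, 1145 and 1205 in N2/Ca and 366, 341 and 115 in Sc/Sc (log2 2.38), and its paralogue MID2 held 1543, 1411 and 1369 in N2/Ca and 733, 753 and 585 in Sc/Sc (log2 1.07). The MAP kinase gene SLT2 held 4876, 6074 and 5723 in N2/Ca and 2562, 2197 and 2253 in Sc/Sc (log2 1.25, SE 0.12, adjusted p = 0.00098). RLM1, the transcription factor at the end of the pathway, rose by log2 1.28 (SE 0.28, adjusted p = 0.024), with an adjusted p of up to 0.078 where an N2/Ca library was left out.

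Among the targets, PRM5, a transmembrane protein gene activated by Slt2, held 1789, 2451 and 2705 in N2/Ca and 434, 319 and 377 in Sc/Sc (log2 2.61, SE 0.18, adjusted p = 0.00019). The wall protein gene CWP1 held 3867, 3533 and 4151 in N2/Ca and 1166, 1316 and 946 in Sc/Sc (log2 1.76, SE 0.14, adjusted p = 0.0003). PIR3, a wall protein linked to glucan, held 896, 604 and 636 in N2/Ca and 167, 130 and 100 in Sc/Sc (log2 2.43, SE 0.22, adjusted p = 0.00079). FKS1, the main glucan synthase subunit, rose by log2 0.81, KDX1, a relative of Slt2, by 1.57 and MCH5, a riboflavin transporter gene, by 1.38. The single target that fell was CWP2, an abundant mannoprotein gene, at 21835 ± 1230 in N2/Ca and 32131 ± 4126 in Sc/Sc (log2 −0.55, adjusted p = 0.029). CWP2 passed in 2 of the 6 fits that left out a library.

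The Rlm1 motif, searched as CTANNNNTAG, was common, with 520 of 5647 windows, or 9.21%. It stood before 10 of the 24 cell wall integrity genes that rose and 7 of the 19 that did not pass. Over all 520 genes, 63 rose, or 12.1%, and 28 fell, or 5.38%, beside 8.59% risen and 5.76% fallen over all genes tested. A pair of windows is shown for comparison with the rarer motifs above; the matches begin 280 and 386 bases before the start.
PIR3 (chrXI:144097-144154, plus strand): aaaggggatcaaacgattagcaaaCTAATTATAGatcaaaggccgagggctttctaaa
CWP1 (chrXI:260722-260779, plus strand): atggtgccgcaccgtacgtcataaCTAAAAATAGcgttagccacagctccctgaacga

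Glucose transport and sensing also rose. Of 16 genes tested, 11 rose and 0 fell (13 and 0 at an unadjusted p below 0.05), with a median fold of 0.95, and the count was 8 to 12 with a library left out. Over all genes 8.59% rose and 5.76% fell, and 17.9% lay above and 15.7% below at the unadjusted limma p. HXT2, a high-affinity transporter gene on chromosome XIII, held 57371, 19127 and 23616 in N2/Ca and 4796, 6680 and 3615 in Sc/Sc (log2 2.60, SE 0.39, adjusted p = 0.0053). N2/Ca replicate 1 was the high library, and without it the fold was 2.12 (adjusted p = 0.0082). HXT4 on chromosome VIII had the same order of N2/Ca libraries, at 14794, 6135 and 7955, against 1318, 1906 and 1881 in Sc/Sc (log2 2.42, and 2.06 without N2/Ca replicate 1). HXT7 rose by log2 2.38 and HXT6 by 2.07; these 2 genes are near-identical copies, so their separate values are uncertain. HXT6 passed in 2 of the 6 fits that left out a library, with an adjusted p of up to 0.063. The low-affinity transporter gene HXT3 held 26113, 25747 and 23540 in N2/Ca and 14811, 17261 and 14023 in Sc/Sc (log2 0.71, SE 0.12, adjusted p = 0.0089), with an adjusted p of 0.056 without N2/Ca replicate 2.

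The regulators of these transporters rose with them. MTH1, a corepressor of HXT genes, held 2630, 1465 and 1708 in N2/Ca and 395, 596 and 384 in Sc/Sc (log2 2.06, SE 0.24, adjusted p = 0.002). Its paralogue STD1 held 1326, 1546 and 1370 in N2/Ca and 720, 729 and 703 in Sc/Sc (log2 0.97, SE 0.10, adjusted p = 0.0015). The repressor gene MIG2 rose by log2 2.21 and the glucose sensor gene SNF3 by 0.92, while MIG1 rose by 1.34 and had an adjusted p of up to 0.064 without N2/Ca replicate 1 or 3. Of 33 glucose-repressed carbon source genes, 7 rose and 0 fell, beside 8.59% risen and 5.76% fallen over all genes. The count of risen genes was 4 to 8 with a library left out, and 4 both without N2/Ca replicate 1 and without N2/Ca replicate 3. Among the 7 were GUT2, the mitochondrial glycerol phosphate dehydrogenase gene (1181 ± 379 in N2/Ca, 306 ± 103 in Sc/Sc), and ALD4, a mitochondrial aldehyde dehydrogenase gene (5281 ± 2376 in N2/Ca, 1240 ± 543 in Sc/Sc).

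**Figure D3:**
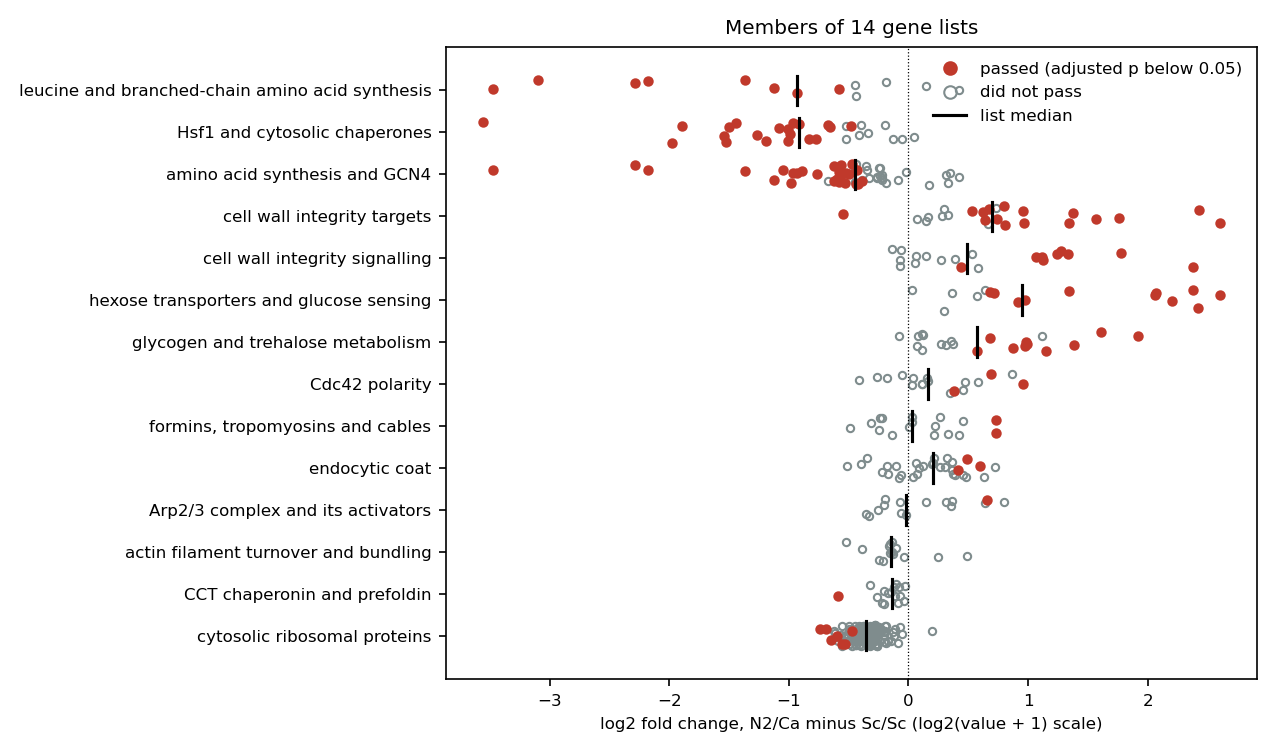
Each point is a gene's log2 fold change, N2/Ca minus Sc/Sc, for 14 lists; filled points passed the limma test and black bars are list medians. The medians of the Hsf1 and leucine lists lie at −0.92 and −0.93, those of the hexose transporter and cell wall target lists at 0.95 and 0.70, and those of the actin cytoskeleton lists between −0.15 and 0.21.

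A few cell cycle genes rose by more than 2-fold. CLN3, the G1 cyclin that starts the cell cycle, held 2379, 2240 and 1991 in N2/Ca and 761, 641 and 413 in Sc/Sc (log2 1.91, SE 0.21, adjusted p = 0.0017). CLN1, a later G1 cyclin on chromosome XIII, rose by log2 1.52 (SE 0.23, adjusted p = 0.0053), and by 1.38 without N2/Ca replicate 1. MIH1, the phosphatase that removes the inhibitory phosphate of Cdc28 and also a chromosome XIII gene, held 716, 481 and 503 in N2/Ca and 247, 226 and 173 in Sc/Sc (log2 1.38, and 1.20 without N2/Ca replicate 1). Of 21 G1 genes 4 rose and 2 fell, and of 34 G2/M genes 4 rose and 1 fell, beside 8.59% risen and 5.76% fallen over all genes. Without N2/Ca replicate 2 or 3, 2 G1 genes rose, and the 2 fallen G1 genes did not pass where any library other than Sc/Sc replicate 3 was left out. Risen G2/M genes numbered 1 without any single N2/Ca library or Sc/Sc replicate 2, and 7 without Sc/Sc replicate 3. FAR1, the pheromone-induced inhibitor of G1 cyclins, rose by log2 1.20 (adjusted p = 0.0089), and with PRM4 and PRM10 made up the 3 of 22 pheromone response genes that rose (6 without Sc/Sc replicate 3).

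Ribosomal protein genes lay slightly lower in N2/Ca. Of 137 cytosolic ribosomal protein genes 7 fell and 0 rose (68 and 0 at an unadjusted p below 0.05), against a background of 5.76% fallen, while the median fold was −0.36 and all 3 N2/Ca values lay below all 3 Sc/Sc values in 111 genes. Such a lack of overlap in that direction occurred for 21.3% of all genes. RPS9A fell to 2066 ± 125 in N2/Ca, against 3459 ± 384 in Sc/Sc (log2 −0.74, SE 0.11, adjusted p = 0.0058). The count was 41 without Sc/Sc replicate 3, the library with the highest ribosomal protein sum, 4 without Sc/Sc replicate 2, and 2, 2 and 1 without N2/Ca replicates 1, 2 and 3. Among 53 ribosome biogenesis genes 7 rose and 0 fell, beside 8.59% risen and 5.76% fallen over all genes. The count of risen biogenesis genes was 2 without N2/Ca replicate 2, 3 without N2/Ca replicate 1 or 3 and 4 without Sc/Sc replicate 2. NSR1, a nucleolar protein gene, was at 11582 ± 618 in N2/Ca and 6266 ± 822 in Sc/Sc (log2 0.89, adjusted p = 0.0043).

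The haploid strains N2 and Ca were compared with ScNI in the same way, on a table normalised separately, so no test was made across ploidy. N2 and Ca share the 3 ScNI libraries, and replicate 2 of each haploid strain showed the MATalpha pattern of mating-type genes. Of 5808 genes tested there, 29.1% passed in N2 and 30.2% in Ca. Of the 822 genes that passed in N2/Ca, 248 passed in the same direction and 42 in the opposite direction in N2, and 186 and 81 in Ca. Across 5724 genes, which are not independent replicates, the folds of N2/Ca correlated at 0.29 with those of N2 and 0.17 with those of Ca.

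The deepest falls of the diploid had no counterpart of their size in the haploids, as the plot of diploid beside haploid folds shows. LEU1 changed by −3.48 in N2/Ca, and by −0.28 in N2 and −0.18 in Ca. BTN2 changed by −3.56 in N2/Ca, and lay at −0.51 in N2 and 0.16 in Ca, where it did not pass (adjusted p = 0.17 and 0.67). The median fold of the Hsf1 list was −0.92 in N2/Ca, −0.21 in N2 and −0.13 in Ca. Of its 29 genes 9 fell and 2 rose in N2, and 11 fell and 3 rose in Ca. Over all haploid genes 29.1% passed in N2 and 30.2% in Ca, counting both directions. Shares by direction are not given for the haploids, so these haploid counts and those of the cell wall lists below lack a directional background. URA1 changed by −2.39 in N2/Ca, and lay at −0.17 in N2 and 0.45 in Ca. The cell wall integrity target list lay higher in all 3 strains: its median fold was 0.70 in N2/Ca, 0.66 in N2 and 0.59 in Ca, and of its 24 genes 15, 13 and 12 rose. In the signalling list 9 of 20 genes rose in N2/Ca, against 1 in N2 and 1 in Ca, and 5 fell in Ca. SLT2, of the signalling list, rose by 1.25 in N2/Ca and lay at −0.21 in N2 and −0.16 in Ca, neither of which passed (adjusted p = 0.59 and 0.69). PRM5, a target, rose by 2.61 in N2/Ca and lay at −0.31 in N2 and −0.76 in Ca (adjusted p = 0.64 and 0.22). PIR3, FKS1 and CLN3 rose in all 3 strains: PIR3 by 2.43 in N2/Ca, 3.09 in N2 and 2.57 in Ca. HXT3 rose by 0.71 in N2/Ca and fell by 0.56 in N2 and by 0.61 in Ca. Whether diploid and haploid folds differ was not tested.

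**Figure D4:**
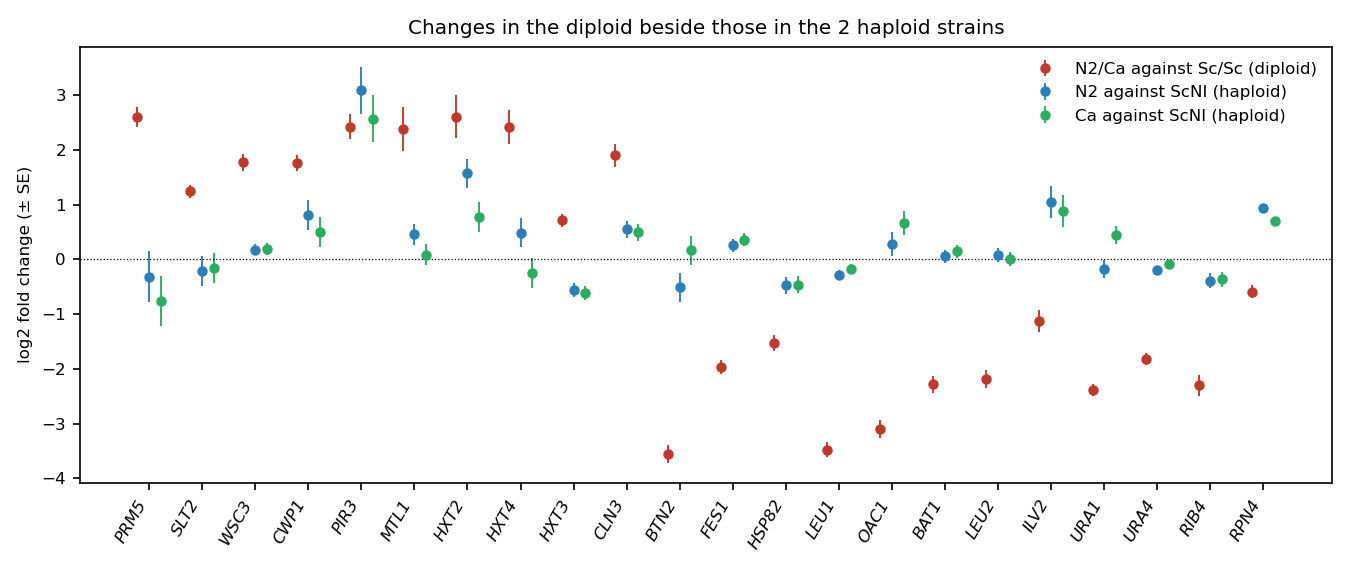
log2 fold changes with their standard errors are plotted for 22 genes: N2/Ca against Sc/Sc (red), N2 against ScNI (blue) and Ca against ScNI (green). LEU1 lies at −3.48, −0.28 and −0.18 in the 3 comparisons, and PIR3 at 2.43, 3.09 and 2.57.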

How the data were processed

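The authors deposited signal values, DESeq2-normalised counts, in a diploid table of 5730 rows and a separate haploid table. The submitters' processing notes name, in no stated order, HISAT2 2.2.1, Trimmomatic 0.39, bcl2fastq 2.20.0.422, FastQC 0.11.9 and the authors' DESeq2 1.28.0, for reads of 50 bases and build R64. Which counting tool, annotation and strand setting were used is not stated there, so paralogues and overlapping genes are uncertain. The diploid columns headed N19_Ca were taken as N2/Ca, the only diploid label that holds Ca. The 3 introduced actin rows were set aside. All 5727 yeast genes had a mean of at least 10 and were tested with limma 3.58.1 (R 4.3.3), mean-variance trend, on log2(value + 1), with Benjamini-Hochberg adjustment over all genes and a threshold of 0.05. A fold on this scale understates the change of low genes. The 18 haploid libraries were fitted together in the same way. Depth was read from the size of the step between values: 100% of values were whole within 0.001 reads. Replicates differed by a chi-square per gene of 4.96 or more, so none was the same library sequenced again. This value cannot tell separate cultures from libraries made of the same culture or RNA. Gene coordinates and sequences came from the R64 genome of RefSeq; 5654 rows matched by locus tag, 72 by symbol and 1 not at all.

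Named genes were ACT1 and the introduced rows, the 12 largest rises and falls among genes that passed without overlap and with a higher mean of at least 100, up to 4 members of each list with the smallest p, and the 3 with the smallest p in each direction on chromosomes VI and XIII. Other genes named are members of the lists or carry a searched motif and were chosen after their values were seen. The members, lists and tests were chosen with earlier results of these data known; the leucine, pyrimidine, riboflavin and glycogen lists, the noncoding RNA rows and the motifs were chosen after the values were seen, so none is independent support. The diploid fit was run on simulated counts with the same relative spread for every gene and library. These held no outlying library and no chromosome shift, so the simulation does not cover those features of the data.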

Additional observations from a re-analysis of the deposited data

Results flagged for a closer look

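The genes that passed, were named by the rules above and are in both tables numbered 128, without those named after their values were seen. In 9 of these, or 7.03%, every N2/Ca library moved one way from Sc/Sc while every N2 and every Ca library moved the other way from ScNI. The same held for 5.72% of all 822 genes that passed and for 3.34% of all genes in both tables, and some haploid folds are near 0. The difference between diploid and haploid folds was not tested, and N2 and Ca share their ScNI libraries. MID2, the cell wall sensor gene, was at log2 1.07 in N2/Ca, −0.06 in N2 and −0.25 in Ca. The oxidase gene ERO1 of the endoplasmic reticulum, on chromosome XIII, was at −0.64 in N2/Ca, 1.29 in N2 and 1.03 in Ca. HRD1, a ubiquitin ligase gene of the same compartment, was at 0.45 in N2/Ca, −0.47 in N2 and −0.57 in Ca. RPN4, the activator of proteasome genes, was at −0.59 in N2/Ca, 0.93 in N2 and 0.69 in Ca, and the ribosomal protein gene RPS9A at −0.74 in N2/Ca, 0.38 in N2 and 0.22 in Ca. PRM4, a pheromone-regulated gene, was at 0.80 in N2/Ca, −0.91 in N2 and −0.66 in Ca, and IME2, a meiotic kinase gene, at 0.93 in N2/Ca, −0.77 in N2 and −0.62 in Ca. BIO4, of biotin synthesis, was at −0.90 in N2/Ca, 0.21 in N2 and 0.79 in Ca. ILV2, acetolactate synthase on chromosome XIII, was at −1.12 in N2/Ca, 1.04 in N2 and 0.88 in Ca. Its haploid replicates were uneven. N2 replicate 1 held 5557 normalised counts, beside 11867 and 11507 for replicates 2 and 3. Ca replicate 3 held 4663, beside 11121 and 10392 for replicates 1 and 2. The highest ScNI library of ILV2 held 4586. For ERO1 the same N2 and Ca libraries were the low ones, at 2334 and 2019, above a highest ScNI library of 1564. With a single library left out, ERO1 and HRD1 each passed in 2 of the 6 fits, BIO4 in 3 and RPN4 in 4.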

How the results depend on the processing

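With a single library left out, genes that passed numbered 266 to 1363, with 175 to 721 higher and 91 to 642 lower, and the fold of ACT1 lay between −0.85 and −0.69, missing the threshold without N2/Ca replicate 2 (−0.75) or 3 (−0.71). Without N2/Ca replicate 1 and Sc/Sc replicate 3 together, an alternative added after seeing the data, 1777 passed (902 higher, 875 lower). Of 220 named genes other than ACT1 that passed, here with those named after their values were seen, 102 also passed whichever single library was left out. The fold of HSF1 was 0.05 and that of LEU3 0.14; with a single library left out HSF1 ranged from −0.113 to 0.128 and LEU3 from −0.009 to 0.25, and without the pair of libraries they were −0.165 and −0.008; neither passed in any of these. Among settings that kept all libraries, counts were 719 to 942. Quantile normalisation gave 806, of which 52.2% were higher, against 59.9% in the main test. With all libraries kept, the fold of ACT1 was −0.46 under quantile normalisation (limma adjusted p = 0.01). It was −0.90 with the median of each chromosome subtracted (limma adjusted p = 0.0025). Whether the replicate numbers pair the libraries is not stated, and correlations of 0.03, −0.07 and 0.20 between same-numbered libraries cannot settle it. The replicate block gave 882 (549 higher, 333 lower), 712 of them shared with the main 822. Planned edgeR and DESeq2 tests on recovered reads were not run, although values were whole within 0.001 reads: in N2/Ca replicates 1, 2 and 3 and Sc/Sc replicate 3 no gene was at 1 read, against which the size of the step could be checked.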

Other observations

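Storage carbohydrate genes rose. Of 21 glycogen and trehalose genes, a list formed after its values were seen, 10 rose and 0 fell, with a median fold of 0.57. The shares over all genes were 8.59% risen and 5.76% fallen. With a library left out 5 to 10 rose (5 without N2/Ca replicate 1, N2/Ca replicate 3 or Sc/Sc replicate 1, 6 without Sc/Sc replicate 2). GPH1, glycogen phosphorylase, held 3386, 1831 and 2328 normalised counts in N2/Ca and 450, 773 and 762 in Sc/Sc (log2 1.92, SE 0.27, limma adjusted p = 0.0043). GLC3, the branching enzyme, held 4260, 2358 and 2722 in N2/Ca and 795, 1261 and 949 in Sc/Sc (log2 1.61), so genes of both breakdown and synthesis rose. N2/Ca replicate 1 was the highest library in both. In the Msn2/4 general stress list, which shares several of these genes, 8 of 28 rose and 3 fell, beside the same shares over all genes. In this list 4 rose without N2/Ca replicate 1, N2/Ca replicate 3 or Sc/Sc replicate 1, and 5 without Sc/Sc replicate 2. Without N2/Ca replicate 2, N2/Ca replicate 3 or Sc/Sc replicate 2, 2 fell. The 3 that fell with all libraries were the small heat shock genes HSP42 (log2 −1.37) and HSP26 (−1.36) and the aldose reductase gene GRE3 (−1.17). HSP26 passed in 2 of the 6 fits that left out a library.

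Other metabolic genes also changed. RIB4, lumazine synthase of riboflavin synthesis, held 1369, 1419 and 1563 in N2/Ca and 5554, 6875 and 9562 in Sc/Sc (log2 −2.30, SE 0.19, adjusted p = 0.00033), and was the only 1 of 8 riboflavin genes to pass. ISU2, an iron-sulfur cluster scaffold gene, held 233, 240 and 195 in N2/Ca and 717, 726 and 871 in Sc/Sc (log2 −1.79, SE 0.14, adjusted p = 0.0003). In the iron list 9 of 31 genes rose and 2 fell, beside 8.59% risen and 5.76% fallen over all genes. Risen iron genes numbered 3 without N2/Ca replicate 1, N2/Ca replicate 2 or Sc/Sc replicate 2, and 2 without N2/Ca replicate 3. ZRT1, the high-affinity zinc transporter gene, held 1563, 1512 and 1668 in N2/Ca and 715, 659 and 639 in Sc/Sc (log2 1.24, SE 0.10, adjusted p = 0.00041), and lay at −1.10 in haploid N2 and 0.19 in haploid Ca. The dicarboxylate carrier gene DIC1, like OAC1 a carrier of the mitochondrial inner membrane, fell by 2.10 on the log2 scale, to 451 ± 63.4 in N2/Ca against 1922 ± 185 in Sc/Sc.

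Among 72 noncoding RNA rows 6 fell, a share near the 5.76% of all genes, and 0 rose (15 and 2 at an unadjusted p below 0.05), and 2 to 4 fell without N2/Ca replicate 1, 2 or 3 or Sc/Sc replicate 2. SNR17A, a U3 small nucleolar RNA, held 39.2, 42.5 and 27.1 in N2/Ca and 101, 163 and 289 in Sc/Sc (log2 −2.21, adjusted p = 0.0083). Such RNAs carry no poly(A) tail when mature, and poly(A) RNA was sequenced, so these rows do not measure their abundance. Their summed level was 10744, 9940 and 9157 in N2/Ca and 10838, 10074 and 16093 in Sc/Sc, the last in Sc/Sc replicate 3.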
